A study of Mus musculus with 8 samples.

Results

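The immunity-related GTPases (IRG proteins) are interferon-inducible proteins that mouse cells use against microbes living inside vacuoles. Effector members gather on the membrane of a parasite's or bacterium's vacuole and break it, while regulator members sit on the cell's own membranes and hold the effectors in an inactive state there. Genes that respond to interferon-gamma (IFN-γ) often carry GAS elements (gamma-activated sequences) in their promoters. The factor IRF1 binds another such element, the ISRE (interferon-stimulated response element). Described here are 8 genes that were listed by name, with earlier results of these data known: the regulators Irgm1, Irgm2 and Igtp, the effectors Iigp1, Tgtp1, Tgtp2 and Ifi47, and Gvin1, which encodes a very large interferon-inducible GTPase. They are 8 of the 45556 named genes of the deposited count table, and all 8 passed the filter on low counts that left 13500 genes to test. Gvin1 was the 1 member that passed only through the IFN-γ libraries. The other 7 also passed the filter in the unstimulated libraries alone. Of these, Tgtp1 passed there only through the line in which it was higher at rest.

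RNA was sequenced from the mouse melanoma line B16F10, which arose in the C57BL/6 strain. Cells carried either pLKO, the empty hairpin vector, or shDRG2, a hairpin against Drg2, the gene of a GTP-binding protein. Each line was left without treatment or given recombinant mouse IFN-γ at 5 ng/ml for 24 hours, with 2 libraries in each of the 4 groups. The study's question concerns DRG2, the checkpoint ligand PD-L1 and checkpoint blockade, and the genes described here belong to the interferon programme measured in the same libraries.

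The 8 libraries held between 25422758 and 36654519 counts. Drg2 was at 64.3 to 76.3 CPM (counts scaled to a common library size) in the 4 pLKO libraries and at 6.46 to 9.34 CPM in the 4 shDRG2 libraries, which do not overlap. The 7 melanocyte lineage markers summed to 12911 to 14944 CPM in resting and 9621 to 11057 CPM in stimulated libraries. With IFN-γ, 4 of 7 fell in pLKO and 6 of 7 in shDRG2 cells, beside 12.7% and 15.2% of all tested genes. The 4 fibroblast markers summed to 25.8 to 29.5 CPM at rest and 10.7 to 13.1 CPM with IFN-γ, with Thy1 at 0 in every library. The part of these shifts in the results was not tested. Of 8 leukocyte markers, Cd3e, Itgam and Adgre1 were at 0 in every library, and the summed list reached at most 1.41 CPM. With 1 population of each line, an effect of the knockdown cannot be told apart from other differences between these populations. The labels do not say that replicates were separate cultures, so p-values measure the spread between these libraries. Fewer expressing cells and less RNA per cell cannot be told apart in bulk RNA.

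The upstream sequences are shown first because 5 of the genes share short elements there. RefSeq (GRCm38.p6) gives a promoter entry for 6 of the 8 genes. The 250 bases upstream of each start were searched on both strands for a GAS, spelled TTCNNNGAA, and for a pair of ISRE half-sites, spelled GAAA, any 2 bases, GAAA. The 60-base windows around the ISRE match are printed on the gene's strand, 5′ to 3′, with matched bases in capitals. For Ifi47, which had no match to either, the 60 bases next to the start are shown. Any other start of Ifi47, which has 5 transcripts in GENCODE, was not searched.
Irgm1, chr11:48871421-48871480, minus strand: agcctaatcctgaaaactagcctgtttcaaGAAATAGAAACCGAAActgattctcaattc
Igtp, chr11:58199487-58199546, plus strand: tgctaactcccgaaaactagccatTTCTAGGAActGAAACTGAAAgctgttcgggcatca
Irgm2, chr11:58214878-58214937, plus strand: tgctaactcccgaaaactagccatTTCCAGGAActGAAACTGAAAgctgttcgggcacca
Tgtp1, chr11:48992299-48992358, minus strand: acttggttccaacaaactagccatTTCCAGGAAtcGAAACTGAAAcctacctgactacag
Tgtp2, chr11:49064258-49064317, minus strand: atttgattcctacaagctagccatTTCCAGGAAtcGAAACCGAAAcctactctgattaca
Ifi47, chr11:49076527-49076586, plus strand: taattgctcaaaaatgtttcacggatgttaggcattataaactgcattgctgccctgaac

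The ISRE pair was found upstream of 5 of these 6 genes, against 2.98% of all 32851 promoter entries, and the GAS upstream of 4 of 6, against 7.02%. In Igtp, Irgm2, Tgtp1 and Tgtp2 the elements stood in the same order on the gene's strand, a GAS followed after 2 bases by the ISRE pair. The joined spelling of GAS, any 2 bases and ISRE pair, searched after this arrangement had been seen, occurred in 5 of the 32851 promoter entries. Those were the same 4 genes and Gm12185, an IRG gene that overlaps 6.96% of the exon bases of Tgtp1. The Igtp and Irgm2 windows were identical at 58 of 60 bases and the Tgtp1 and Tgtp2 windows at 46 of 60, so near copies are not independent examples of the arrangement. In Irgm1 the ISRE spelling matched at overlapping positions, from -30 to -21 and from -24 to -15 before the start, without a GAS match. Its window also lies inside an exon of a noncoding Irgm1 transcript in GENCODE. The Irgm2 and Tgtp1 windows likewise lie within the GENCODE bounds of their genes, past the outermost annotated start. The Igtp window lies just upstream of the outermost GENCODE start of Irgm2 as well.

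**Figure D1:**
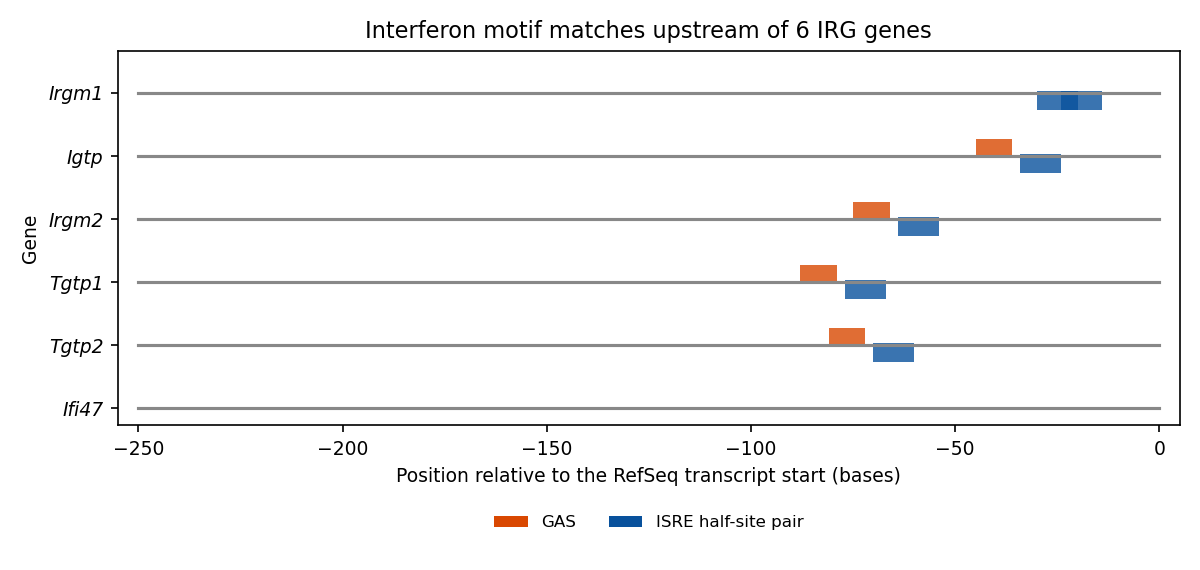
Matches to the GAS (orange) and ISRE half-site pair (blue) spellings within 250 bases upstream of the RefSeq start of 6 IRG genes; the x axis is the position in bases relative to the start. All matches lie within the 88 bases next to the start, and Ifi47 has none.

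Most of the family sits in 2 stretches of chromosome 11 (GENCODE M21, GRCm38). Irgm1 (ENSMUSG00000046879.7, 48861968 to 48871683, minus strand), Tgtp1 (ENSMUSG00000078922.9, 48985327 to 48994172, minus strand), Tgtp2 (ENSMUSG00000078921.3, 49057194 to 49064206, minus strand) and Ifi47 (ENSMUSG00000078920.3, 49076587 to 49096974, plus strand) form the first. Igtp (ENSMUSG00000078853.8, 58199556 to 58207591, plus strand) and Irgm2 (ENSMUSG00000069874.7, 58199618 to 58222782, plus strand) form the second, where their annotated exons share 162 bases. Iigp1 (ENSMUSG00000054072.12, 60376027 to 60392634, plus strand) lies on chromosome 18 and Gvin1 (ENSMUSG00000045868.12, 106156556 to 106215326, minus strand) on chromosome 7.

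How far a read can be given to 1 gene differs sharply among the members. Of the 31-base words in the annotated transcripts of Gvin1, 99.0% also occur in Gm4070, a neighbouring copy, and 89.2% of those of Tgtp2 occur in Tgtp1. Irgm2 supplies 15.9% of the words of Igtp, and Irgm1 shares 2.21% of its words with any other gene. Where a read fits several genes, the deposited counts can be fractions. Igtp and Irgm2 had fractional counts in 6 libraries, and in 6 of 6 their sum was a whole number to within 0.0015. Tgtp1 and Tgtp2 summed to whole numbers in 5 of 8 libraries, Iigp1 with its relative Gm4951 in 3 of 3, and Ifi47 with the overlapping receptor gene Olfr56 in 4 of 4. Irgm1 was whole in every library.

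The 7 genes that passed the filter at rest rose with IFN-γ in both lines, and Gvin1 went from at most 0.5 deposited counts to 20.4 CPM or more, in a background where 15.4% of 13500 genes rose and 12.7% fell in pLKO cells (28.1% in all), and 16.2% rose and 15.2% fell in shDRG2 cells (31.4% in all). Together the 8 genes took 0.00271% to 0.00378% of the counts of an unstimulated library and 0.986% to 1.11% of the counts of a stimulated one. Leaving aside Gvin1, which has a lower bound only, the smallest response in both lines was that of the regulator Irgm1. The largest was that of the effector Tgtp1 in pLKO (13.44) and of the effector Iigp1 in shDRG2 cells (12.59). The Tgtp1 value rests on 9 resting counts, and with Tgtp1 and its near copy Tgtp2 summed (11.53), Iigp1 was also the largest in pLKO (12.05). The call of Tgtp1 in pLKO is not used as support, since at rest it passed the filter through shDRG2. The median log2 fold change of the members was 10.43 in pLKO and 11.00 in shDRG2 cells, or 10.02 and 10.20 with Gvin1 at its lower bound, beside a median of 0.01 and 0.00 over all genes.

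**Figure D2:**
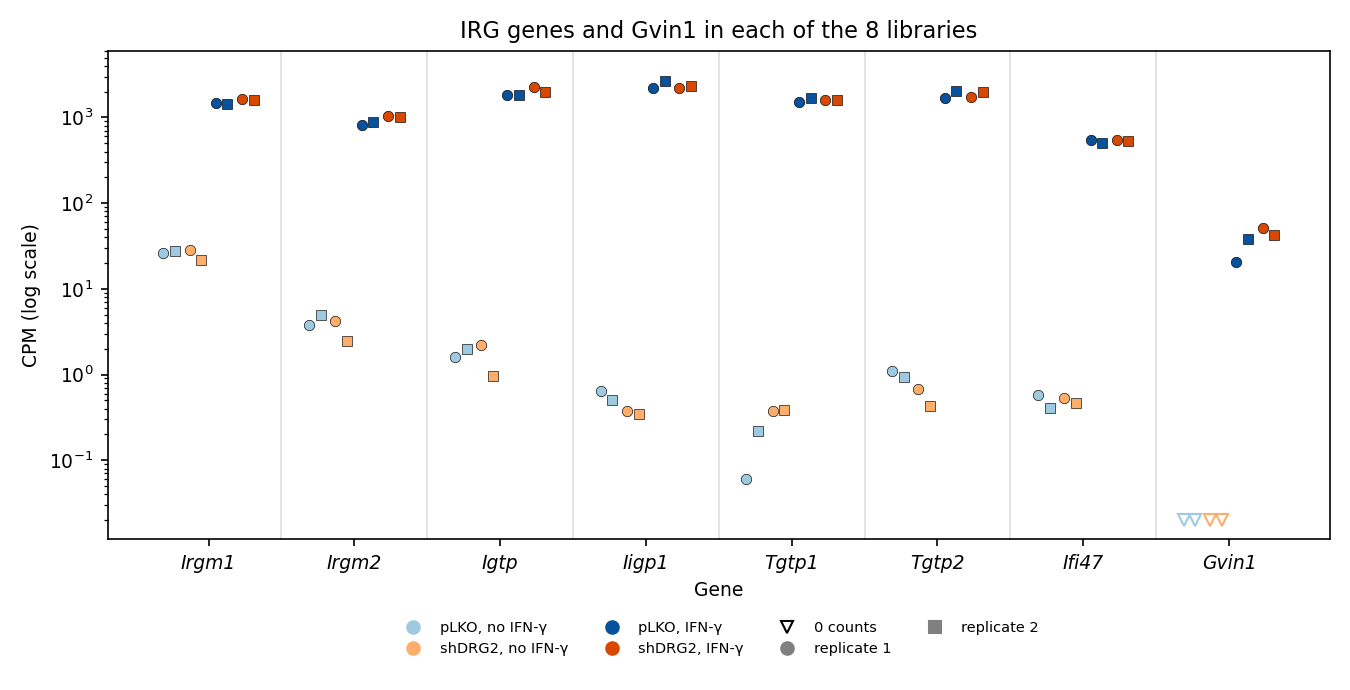
CPM on a log axis for each gene in each of the 8 libraries (circles, replicate 1; squares, replicate 2; open triangles, libraries with 0 counts; colours, the 4 groups). In each line, both stimulated libraries lie above both unstimulated ones in each gene. That arrangement occurs in 32.2% of all tested genes in pLKO and 33% in shDRG2 cells. Gvin1 was tested only through its stimulated libraries. The resting values spread over more decades than the stimulated ones.

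Among the regulators, Irgm1, whose protein sits on the Golgi and lysosomes, was at 26.0 and 27.3 CPM in pLKO and 28.4 and 21.6 CPM in shDRG2 cells without IFN-γ. It reached 1481 and 1438 CPM in pLKO and 1657 and 1577 CPM in shDRG2 cells with it. Its rise over the resting level in pLKO was 54.8-fold, or 5.78 on the log2 scale (SE 0.134, adjusted p = 3.73e-10). In shDRG2 cells Irgm1 rose 64.5-fold, or 6.01 (SE 0.136, adjusted p = 3.21e-10). Its 557 to 913 deposited counts per unstimulated library make it the member with the best measured resting level.

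Irgm2 was at 3.79 and 5.00 CPM in resting pLKO and 4.23 and 2.48 CPM in resting shDRG2 cells, and at 808 and 877 CPM, and 1043 and 1007 CPM, with IFN-γ. The rise of Irgm2 was 192-fold for pLKO (7.58, SE 0.192) and 299-fold for shDRG2 (8.23, SE 0.200), with an adjusted p of 6.94e-10 and 5.11e-10. Igtp, also known as Irgm3 and found on the endoplasmic reticulum and lipid droplets, started lower and ended higher than its neighbour Irgm2. It was at 1.59 and 1.97 CPM in resting pLKO and 2.24 and 0.969 CPM in resting shDRG2 cells, and at 1805 and 1835 CPM, and 2286 and 1992 CPM, after IFN-γ. Its rise was 1021-fold for pLKO (10.00, SE 0.232) and 1286-fold for shDRG2 (10.33, SE 0.237), with an adjusted p of 3.73e-10 and 3.21e-10. Without replicate 1 of resting shDRG2 the latter was 11.10. Stimulated libraries lay above resting ones in both genes. Within a line, that arrangement was found in 32.2% of all tested genes in pLKO and 33% in shDRG2 cells.

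Because Igtp and Irgm2 share transcript words, their counts were also summed. The sum rose 431-fold in pLKO and 626-fold in shDRG2 cells (8.75, SE 0.238, and 9.29, SE 0.245). Igtp held 29.5% and 28.3% of the pair's counts in resting pLKO and 34.4% and 28.1% in resting shDRG2 libraries. With IFN-γ it held 69.1% and 67.7% in pLKO and 68.7% and 66.4% in shDRG2 cells. The highest exact 95% binomial limit at rest was 41.5%, so the balance of the pair moved towards Igtp in every stimulated library beyond counting error.

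**Figure D3:**
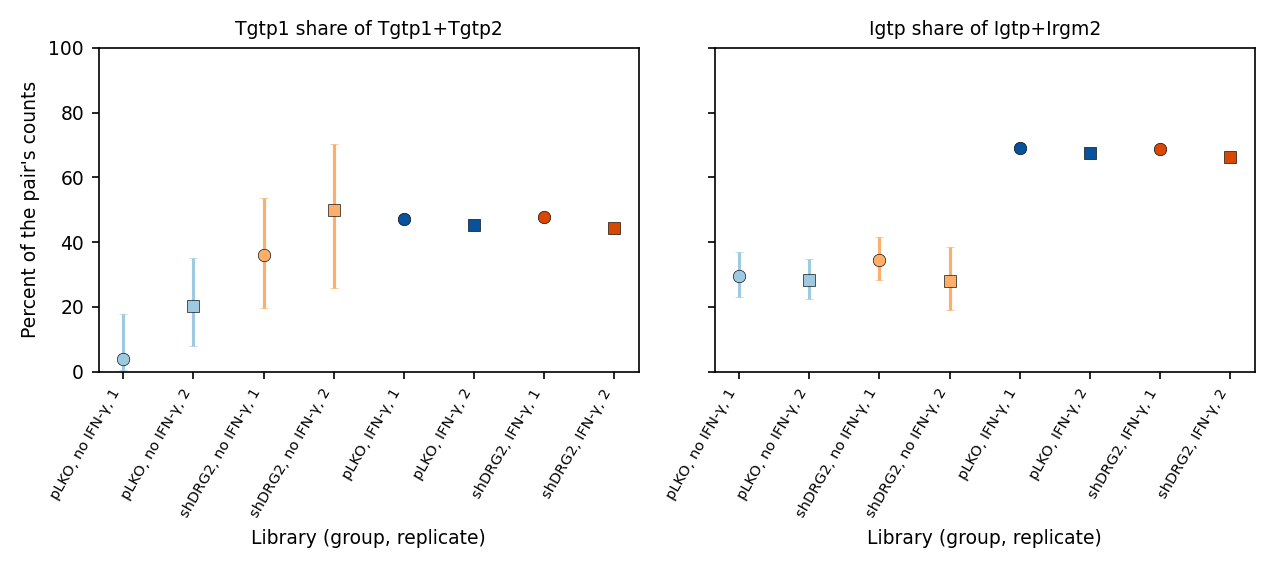
Share of a pair's deposited counts given to Tgtp1 (left, of Tgtp1 and Tgtp2) and to Igtp (right, of Igtp and Irgm2) in each library, in percent, with exact 95% binomial intervals that cover counting error only. The Igtp share lies below 35% in the 4 resting libraries and above 66% in the 4 stimulated ones, while the Tgtp1 share is widely spread at rest and between 44.5% and 47.7% with IFN-γ.

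Among the effectors, Iigp1 (Irga6), a GTPase that polymerises on vacuole membranes, was at 0.642 and 0.500 CPM in resting pLKO and 0.373 and 0.349 CPM in resting shDRG2 cells. With IFN-γ it stood at 2209 and 2679 CPM in pLKO and 2183 and 2327 CPM in shDRG2 cells. It rose 4245-fold (12.05, SE 0.180) and 6157-fold (12.59, SE 0.190), with an adjusted p of 2.13e-11 and 2.06e-11. Iigp1 held 88.8% to 90.3% of the summed counts of Iigp1 and Gm4951 in the 4 stimulated libraries. The resting values rest on 37 counts in pLKO and 21 in shDRG2 cells, and the ratio of pooled counts had 95% counting intervals of 3130 to 6128 and 4084 to 10087.

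Tgtp1 and Tgtp2 (Irgb6) encode near-identical effectors that are among the first to load on vacuoles. Tgtp1 was at 0.0611 and 0.219 CPM in resting pLKO and 0.373 and 0.388 CPM in resting shDRG2 cells, and at 1504 and 1676 CPM, and 1581 and 1601 CPM, with IFN-γ. Tgtp2 was at 1.10 and 0.938 CPM, and 0.684 and 0.426 CPM, at rest, and at 1688 and 2013 CPM, and 1731 and 1996 CPM, with IFN-γ. Tgtp1 rose by 13.44 on the log2 scale in pLKO (SE 0.199, adjusted p = 2.13e-11) and by 12.02 in shDRG2 cells (SE 0.182, adjusted p = 2.06e-11). The pLKO value was 12.80 without replicate 1 and 14.58 without replicate 2 of resting pLKO, where Tgtp1 had 1.511 and 7.481 deposited counts. Tgtp2 rose by 10.82 (SE 0.188, adjusted p = 4.39e-11) and 11.67 (SE 0.202, adjusted p = 4.03e-11). The split between these copies is the least certain part of the data, since the resting pair held 38, 37, 34 and 21 counts and most sequence is shared. Summed, the pair rose 2958-fold in pLKO (11.53, SE 0.162) and 3632-fold in shDRG2 cells (11.83, SE 0.166).

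Ifi47 (Irgd), a further IRG protein, was at 0.581 and 0.407 CPM in resting pLKO and 0.529 and 0.465 CPM in resting shDRG2 cells. It reached 549 and 503 CPM, and 548 and 536 CPM, with IFN-γ. Ifi47 rose 1055-fold (10.04, SE 0.142) and 1075-fold (10.07, SE 0.144), with an adjusted p of 2.13e-11 and 2.06e-11. The replicates of Ifi47 lay close together in each stimulated group. Within each line its stimulated libraries lay above its resting ones, as in 32.2% of all tested genes in pLKO and 33% in shDRG2.

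Gvin1 had 0 counts in both resting pLKO libraries, and 0 and 0.5 deposited counts in resting shDRG2 libraries. IFN-γ brought Gvin1 to 20.4 and 38.3 CPM in pLKO and to 51.2 and 42.4 CPM in shDRG2 cells. Against a floor of 3 counts over the resting group, Gvin1 was at least 652-fold higher in pLKO and at least 896-fold higher in shDRG2 cells. Gvin1 was among the tested genes only through its stimulated libraries, so its test result is not used here as support. The pLKO replicates lay farther apart than those of any other stimulated member. Gm4070, the copy that shares nearly all its sequence, was also at 0 in resting pLKO and at 5.04 and 11.1 CPM with IFN-γ. Gvin1 held 74.7% to 80.4% of the summed counts of both in the stimulated libraries.

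**Figure D4:**
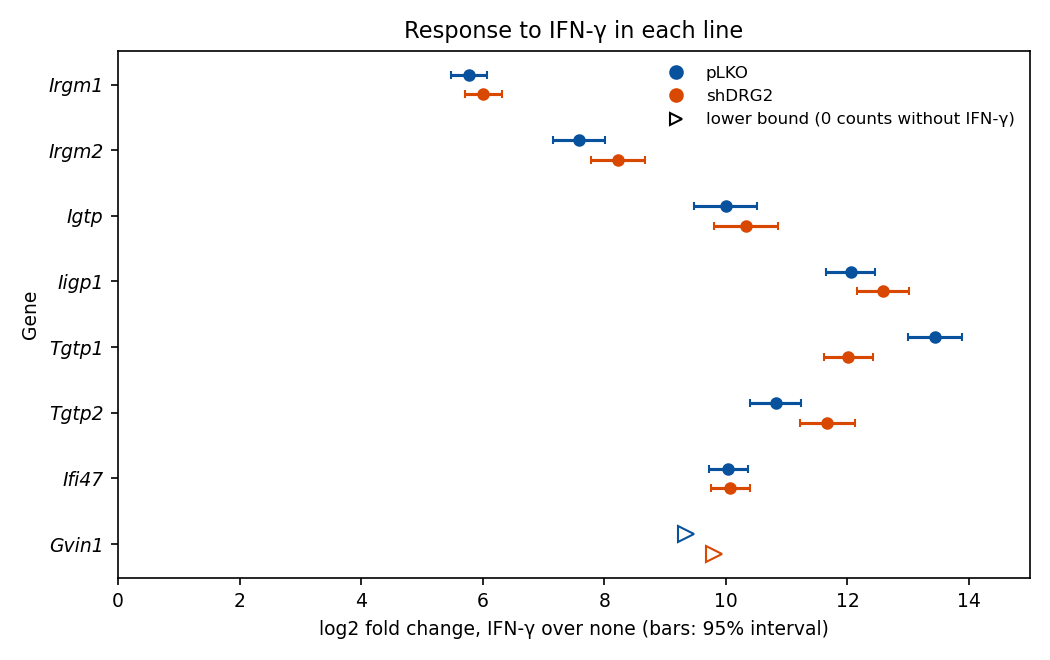
Fitted log2 fold change of IFN-γ over no treatment in pLKO (blue) and shDRG2 (orange) cells, with 95% intervals; open triangles mark the lower bounds for Gvin1. The values run from 5.78 for Irgm1 to 13.44 for Tgtp1 in pLKO cells. The intervals are derived from the F statistic and can be narrower than counting error where resting counts are few.

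Levels of different genes were compared as CPM per kilobase of the longest annotated transcript, leaving out Gvin1. Resting pLKO cells spanned a 140-fold range, from 6.95 ± 0.241 (SD, n = 2) for Irgm1 to 0.0496 ± 0.0395 for Tgtp1, whose replicates were at 0.0216 and 0.0776. Resting shDRG2 cells spanned 56.4-fold, from 6.52 ± 1.26 for Irgm1 to 0.116 ± 0.00553 for Iigp1. The range was 3.77-fold in stimulated pLKO cells, from 900.03 ± 10.5 for Igtp to 239 ± 13.8 for Irgm2, and 3.64-fold in stimulated shDRG2 cells. The order in stimulated pLKO was Igtp, Iigp1 (783 ± 106), Tgtp2 (659 ± 81.9), Tgtp1 (563 ± 43.0), Irgm1 (381 ± 7.99), Ifi47 (297 ± 18.5) and Irgm2, and shDRG2 cells gave the same order. Of these neighbours, Iigp1 and Tgtp2 overlapped between replicates in both lines and Irgm2 did not reach Ifi47 in either. Gvin1 was at 3.26 ± 1.41 CPM per kilobase in pLKO and 5.20 ± 0.692 in shDRG2 cells with IFN-γ. With the merged exon length, Igtp stayed highest in both lines but Iigp1 moved behind Tgtp2 and Tgtp1, and Irgm2 moved ahead of Ifi47. The order below Igtp therefore depends on the length used.

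Between the lines, no member was called without IFN-γ by edgeR's quasi-likelihood test (adjusted p under 0.05), where 1.2% of all tested genes were (0.467% higher and 0.733% lower in shDRG2). The members, with Gvin1 at 0, had a median log2 difference (shDRG2 over pLKO) of -0.09, beside 0.01 over all genes. At an unadjusted p under 0.05 there were 2 of 8 members, Tgtp1 and Tgtp2, in opposite directions, and 1723 of all 13500 genes. DESeq2 and limma-voom called none. Irgm1 differed by -0.09 (95% interval -0.35 to 0.18, adjusted p = 0.839), Irgm2 by -0.36 (-0.85 to 0.13, adjusted p = 0.564) and Igtp by -0.10 (-0.79 to 0.59, adjusted p = 0.942). Iigp1 differed by -0.65 (-1.49 to 0.19, adjusted p = 0.540) and Ifi47 by 0.02 (-0.64 to 0.67, adjusted p = 0.995). Without replicate 2 of resting shDRG2 the value of Igtp was 0.33, and without replicate 1 it was -0.87. The intervals of the weakly expressed members leave room for differences of 1.5-fold and more.

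Tgtp1 stood at 1.42 (0.30 to 2.54, adjusted p = 0.247) and Tgtp2 at -0.84 (-1.59 to -0.09, adjusted p = 0.319). At rest Tgtp1 passed the filter through shDRG2 (12.232 and 10.475 deposited counts), not through pLKO (1.511 and 7.481). Its value is therefore not used as support for a difference. With Tgtp1 and Tgtp2 counted as 1 gene the difference was -0.29 (-0.84 to 0.26, adjusted p = 0.710) for the pair. The Tgtp1 value was 0.77 without replicate 1 and 2.56 without replicate 2 of resting pLKO. The Tgtp1 share of the pair was 3.98% and 20.2% in resting pLKO and 36.0% and 49.9% in resting shDRG2 libraries, with counting intervals of 0.644% to 17.7%, 7.96% to 35.2%, 19.7% to 53.5% and 25.7% to 70.2%.

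With IFN-γ, again no member was called between the lines, where 1.67% of all tested genes were (0.504% higher and 1.17% lower in shDRG2). The median log2 difference of the members was 0.10, beside 0.00 over all genes, and 7 of 8 values were positive. Both shDRG2 libraries lay above both pLKO libraries in Irgm1, Irgm2, Igtp and Gvin1, an arrangement found in 20.2% of all tested genes. At an unadjusted p under 0.05 there was 1 of 8 members, Gvin1, and 1616 of all 13500 genes. DESeq2 and limma-voom called no member. Irgm1 differed by 0.15 (-0.09 to 0.39, adjusted p = 0.689), Igtp by 0.23 (-0.09 to 0.56, adjusted p = 0.613) and Irgm2 by 0.28 (-0.02 to 0.58, adjusted p = 0.461). Irgm2 was called without the filter on low counts (0.29, adjusted p = 0.0410), and its adjusted p ran from 0.0410 to 1.00 over 16 alternatives. The upper limits of the 95% intervals bound a rise of these regulators in shDRG2 cells at 0.39 to 0.58.

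The effectors had values near 0. Iigp1 differed by -0.12 (-0.34 to 0.11, adjusted p = 0.756), Tgtp1 by 0.00 (-0.21 to 0.22, adjusted p = 1.00), Tgtp2 by 0.01 (-0.24 to 0.26, adjusted p = 0.991) and Ifi47 by 0.04 (-0.14 to 0.22, adjusted p = 0.916). Tgtp1 and Tgtp2 changed sign under upper-quartile scaling, and Tgtp1 also with library size alone. Both were also negative without replicate 1 of stimulated pLKO (-0.07 and -0.11) and without replicate 2 of stimulated shDRG2 (-0.01 and -0.10). Iigp1 (0.03) and Ifi47 (-0.02) changed sign without replicate 2 of stimulated pLKO.

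Gvin1 had the largest difference among the members with IFN-γ, at 0.67 (0.09 to 1.24, adjusted p = 0.317). This value turns on the pLKO replicates, being 0.29 without replicate 1 of stimulated pLKO and 1.20 without replicate 2, where it was called (adjusted p = 0.0124). It was also called without the filter (0.68, adjusted p = 1.70e-06), and its adjusted p ran from 1.70e-06 to 0.876 over 16 alternatives. Summed with Gm4070 it differed by 0.69 (0.11 to 1.27, adjusted p = 0.300).

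**Figure D5:**
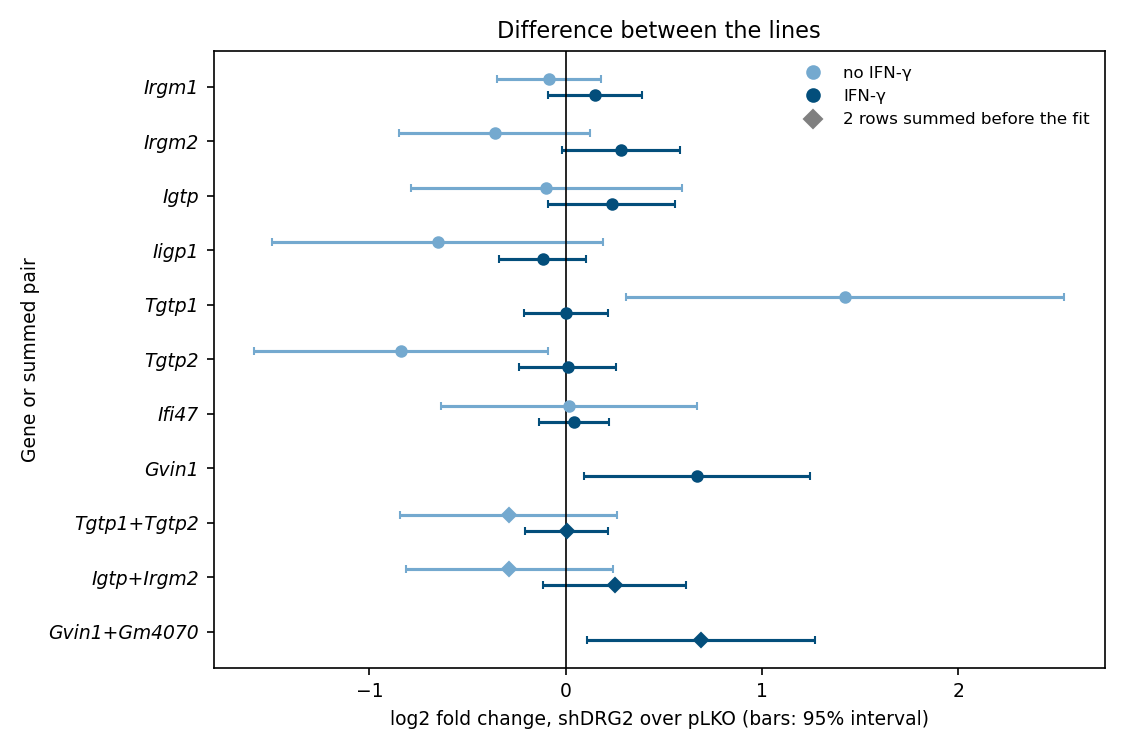
Log2 difference of shDRG2 over pLKO for each member without IFN-γ (light) and with it (dark), with 95% intervals, and for 3 pairs of genes summed before the fit (diamonds). Gvin1 has no value without IFN-γ because it was at 0 counts in pLKO; among the values with IFN-γ, Gvin1 (0.67) and its summed pair (0.69) lie farthest from 0.

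No member was called by the edgeR test of the difference between the 2 IFN-γ responses, and 0.00741% of all tested genes were. At an unadjusted p under 0.05 there were 3 of 8 members, Irgm2, Tgtp1 and Tgtp2, and 321 of all 13500 genes. DESeq2 and limma-voom called no member. The difference (shDRG2 response minus pLKO response) was 0.23 for Irgm1 (-0.12 to 0.59), 0.33 for Igtp (-0.43 to 1.09), 0.54 for Iigp1 (-0.33 to 1.41) and 0.03 for Ifi47 (-0.66 to 0.71). Irgm2 stood at 0.64 (0.07 to 1.22), Tgtp2 at 0.85 (0.06 to 1.64) and Tgtp1 at -1.42 (-2.56 to -0.28), each with an adjusted p = 1.00. These values move with single resting libraries. Igtp gave 1.11 without replicate 1 and -0.10 without replicate 2 of resting shDRG2, and Irgm2 gave 1.11 and 0.34. Tgtp1 gave -0.77 without replicate 1 and -2.55 without replicate 2 of resting pLKO. Tgtp1 and Tgtp2 summed gave 0.30 (-0.30 to 0.89). For Gvin1 no difference of responses can be given, because the resting level was at 0 in the fit in both lines.

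Other IRG genes, outside the 8, also rose with IFN-γ. Of 12 listed, 10 were in the table and 8 were tested. Of those, 7 rose with IFN-γ in each line, beside 15.4% of all tested genes in pLKO and 16.2% in shDRG2 cells. None was called between the lines. The 7 that rose held at most 10 resting counts in pLKO and 15 in shDRG2 cells. Genes this low at rest reach the test through their stimulated libraries, so these calls are not used as support. Gm12250, known as Irgb10, rose 2587-fold in pLKO and 1851-fold in shDRG2 cells (11.34, SE 0.164, and 10.85, SE 0.157). 9930111J21Rik2 went from 0 counts to 4902 in pLKO, at least 1768-fold higher, a bound below the 4376-fold rise fitted for Gm12185. Irgq, an IRG relative that is not known as interferon-inducible, was at -0.08 in pLKO (adjusted p = 0.522) and 0.05 in shDRG2 cells (adjusted p = 0.676). Of the large GVIN-type genes, 2 were tested, of which Gm4070 rose and Gm8995 was not called. Gm4070 had 0 rounded resting counts in both lines, so its call is not used as support either.

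Among the guanylate-binding proteins (GBPs), which act on the same vacuoles, 10 of 11 listed genes were tested and all 10 rose in each line. Over all tested genes, 15.4% rose and 12.7% fell in pLKO, and 16.2% rose and 15.2% fell in shDRG2 cells. Gbp5, Gbp8, Gbp9, Gbp10 and Gbp11 held at most 9 resting counts in either line, so their calls are likewise not used as support. The same holds for Gbp4, with 12 resting counts in pLKO and 19 in shDRG2 cells. The lowest log2 change in pLKO was 7.14, for Gbp3. Gbp9, with 0 resting counts in pLKO, was at least 847-fold higher, a bound below the 5999-fold rise fitted for Gbp4. Gbp5 was the 1 gene of this list called between the lines with IFN-γ, at 60.4 and 67.1 CPM in pLKO and 103 and 101 CPM in shDRG2 cells (0.68, SE 0.0883, adjusted p = 0.00488). Of 12 genes of the IFN-γ receptor and its transcription factors, 10 rose and 1 fell in each line. None was called between the lines. Irf8 and Batf2, both among those that rose, held at most 10 resting counts in either line, so their calls are not used as support. Irf8, a transcription factor, had the largest fitted change in pLKO (10.41), which rests on 10 resting counts. The receptor chain gene Ifngr2 had the lowest, a fall of 0.45 on the log2 scale (-0.45, adjusted p = 0.00394).

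The machinery that IRG proteins use on vacuoles changed far less. Of 10 genes of ATG8 conjugation, the autophagy system needed to direct IRG and GBP proteins, 4 rose in pLKO and 2 in shDRG2 cells. Over all tested genes, 15.4% rose in pLKO and 16.2% in shDRG2 cells, so the shDRG2 count is near that share. The largest change in pLKO was that of Gabarapl1 (0.48) and the smallest that of Map1lc3a, at -0.04. Of 5 ubiquitin and adaptor genes, 3 rose in each line, with Trim21 at 3.36 and Sqstm1 at -0.01 in pLKO. None of these 15 genes was called between the lines, with or without IFN-γ.

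The genes whose profiles over the 8 libraries lay nearest to those of single members were mostly other interferon-induced genes. The IFN-γ rise dominates each member's profile, so the nearest genes had to be ones that rise too. Distances were Euclidean, on log2 CPM centred on resting pLKO, over 13492 other genes. The transcription factor gene Irf1 was nearest to Irgm1 (0.485), Gbp2 to Ifi47 (0.881), the complement gene C4b to Igtp (0.889) and Casp12 to Irgm2 (0.778). A near profile does not mean an equal fitted rise. Casp12 was fitted at 9.28 in pLKO and 12.42 in shDRG2 cells, and Irgm2 at 7.58 and 8.23. Gm4951 was nearest to Tgtp2 (1.09), Gbp10 to Iigp1 (1.42), Gbp4 to Tgtp1 (2.07) and the perforin-like Mpeg1 to Gvin1 (0.732). The median profile of the members lay nearest to C4b, Prph, Gbp2, Olfr56 and H2-Ab1, and of these Olfr56 shares exon bases with Ifi47.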

How the data were processed

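The authors deposited 1 table of estimated counts (expected counts) per gene for 8 libraries, made with STAR, Salmon 1.5.2 and mm10 per the submitters' processing notes. The sources used here do not give the roles of these tools, the annotation or the strandedness. Of 45583 entries, 27 with names turned into dates (0.204% to 0.212% of a library) were left out. Rounded counts went into edgeR 4.0.16 (R 4.3.3): filterByExpr, TMM, 1 coefficient per group over all 8 libraries, quasi-likelihood F test, two-sided, Benjamini-Hochberg over 13500 genes at 0.05. SE is the absolute log2 fold change divided by the square root of F, and the 95% intervals follow from it. Where resting counts are few, both can be narrower than counting error, as for Tgtp1 in pLKO. CPM is relative to the counts of tested genes, TMM-adjusted, n = 2 per group. Alternatives were RLE, upper-quartile and no scaling, no filter, DESeq2 1.42.0, limma-voom 3.58.1, the replicate number as a block, each library left out, and near copies summed. The procedure was tested on simulated counts. Counting intervals are exact and cover counting error only. All 8 members were named, with genes from fixed related lists by largest and smallest change and by calls between lines. Members and lists were chosen with earlier results of these data known. Positions are from GENCODE M21 and promoters from RefSeq.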

Additional observations from a re-analysis of the deposited data

How the results depend on the processing

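With IFN-γ against none, the 7 members that passed the filter at rest were called in both lines under every scaling, filter, tool and block. The calls also held with Tgtp1 and Tgtp2, or Igtp and Irgm2, summed. In the main setting 28.1% of all tested genes were called in pLKO and 31.4% in shDRG2 cells. These 7 members also rose with each library left out. Gvin1 was called too, but it entered the test only through its stimulated libraries, so its calls are not used as support. Nor is the call of Tgtp1 in pLKO, since at rest Tgtp1 passed the filter through shDRG2. Summing Igtp and Irgm2, Iigp1 and Gm4951, and Gvin1 and Gm4070 was added after seeing the data. Without IFN-γ, and for the difference between responses, 0 members were called in each alternative. With IFN-γ, 2 members were called between the lines without the filter (Irgm2 and Gvin1), and 0 to 1 with a library left out, the 1 being Gvin1 without replicate 2 of stimulated pLKO. Over all genes, the 162 called between the lines without IFN-γ became 678 without the filter and 312 with DESeq2. The 226 called with IFN-γ became 653 without the filter. The 1 gene called for the difference became 58 without the filter and 9 with DESeq2. The replicate number as a block gave 673, 675 and 2 genes, and changed no call of a member. Same-numbered libraries deviated together with correlations of 0.107 to 0.274, but the labels do not say that a number marks a shared culture, and each comparison holds 2 numbers, so the pairing was not taken as given. With a library left out, the counts were 27 to 167 without IFN-γ, 44 to 202 with it and 1 to 2 for the difference, and 2482 to 3749 and 2720 to 4297 for IFN-γ in pLKO and shDRG2 cells. The lone library left in a group is assumed to vary like the other groups. The cause of these shifts was not tested. In pLKO the folds of Igtp, Iigp1, Ifi47, Tgtp1 and Tgtp2 rest on 9 to 115 resting counts. How much these counts and the spread of the stimulated libraries each add to the uncertainty was not compared.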

Other observations

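Resting shDRG2 replicate 2 had lower levels than replicate 1 in 6 of the 8 genes, with a log2 ratio of replicate 1 over 2 of 1.13 for Igtp, 0.75 for Irgm2, 0.58 for Tgtp2 and 0.39 for Irgm1. Over all tested genes, the 95th percentile of that ratio was 0.43 and the median 0.02. The values of Igtp, Irgm2 and Tgtp2 lie above that percentile, while Iigp1 (0.08) and Ifi47 (0.15) lie below it. The percentile is over all tested genes, not over genes with like counts. Igtp had 71.6 and 25 deposited counts in these libraries and Tgtp2 21.8 and 10.5, where counting error widens the ratio. Gvin1 was at 0 CPM in both. In resting pLKO the median ratio of the members was -0.04.

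Gm12185, the fifth gene whose promoter entry holds the joined GAS and ISRE spelling, was at 0.156 CPM in resting and 694 CPM in stimulated pLKO cells, and at 0.194 and 902 CPM in shDRG2 cells. Its fitted rise was 12.10 on the log2 scale in pLKO and 12.18 in shDRG2 cells, within the range of the effectors Iigp1, Tgtp1 and Tgtp2. Those values rest on 10 resting counts of Gm12185 in pLKO and 11 in shDRG2 cells. Igtp (10.00 and 10.33) and Irgm2 (7.58 and 8.23) hold the same spelling and rose less. Ifi47, without a match, rose by 10.04 and 10.07. Whether the spelling bears on the size of the rise was not tested.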
